A study of Mus musculus with 36 samples.

Results

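Distal forelimbs that lack 3 CTCF binding sites at the Hoxd cluster, Del(CBS1-3), were set against distal forelimbs that lack 2 of these sites, Del(CBS1-2), so that the added loss of the third site was the designed difference. The 6 libraries were chosen by their labels, out of 36 in the series. Each group held 3 libraries, and each library came from one individual's pair of forelimbs at E12.5. All embryos were of the strain B6CBAF1, and the alleles were made with CRISPR/Cas9. The labels do not give the zygosity, the litter, the number of founder lines or a library batch, so the allele cannot be told apart from other differences between the lines. The other 30 libraries are the remaining distal genotypes, Del(CBS1-4), Del(CBS1-5), Del(CBS1) and wild type (WT), and the proximal forelimbs of all 6 genotypes. A CTCF site is not itself a counted gene, and no genotype label was checked by a count.

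The Hoxd genes stand side by side and encode homeodomain transcription factors. In the distal limb bud, Hoxd13 and its neighbours are transcribed under enhancers on the centromeric side of the cluster and pattern the digits. In the proximal limb bud, the genes from the middle of the cluster onward are transcribed under enhancers on the telomeric side and pattern the arm. CTCF is a DNA-binding protein that halts the loop-extruding cohesin complex, and its sites within the cluster can decide which genes meet which enhancers.

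The count table gave 12319550 to 13678459 reads per Del(CBS1-3) library and 14362975 to 17727891 per Del(CBS1-2) library. Hoxa13, a marker of the distal limb, had 167 to 205 CPM (counts scaled by library size) in distal Del(CBS1-3) and 172 to 187 CPM in distal Del(CBS1-2), against 9.24 to 10.4 and 22.8 to 33.1 CPM in the proximal libraries of these genotypes. The sexes were not balanced. By the FPKM of Xist and of 4 Y-linked genes, 2 of the 3 Del(CBS1-3) embryos were male, and 0 of the 3 Del(CBS1-2) embryos. The mean log2 CPM of 24 muscle contractile genes, of which 23 were tested, was -0.66, 0.85 and -0.87 in Del(CBS1-3) replicates 1 to 3, against 2.00, 0.74 and 1.03 in Del(CBS1-2). The mean of the chondrogenesis list was 3.48, 4.29 and 3.36 in Del(CBS1-3), against 4.64, 4.55 and 4.29 in Del(CBS1-2). On both measures Del(CBS1-3) replicate 2 lay next to the Del(CBS1-2) libraries, while the other 2 libraries of its group lay apart from them.

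**Figure D1:**
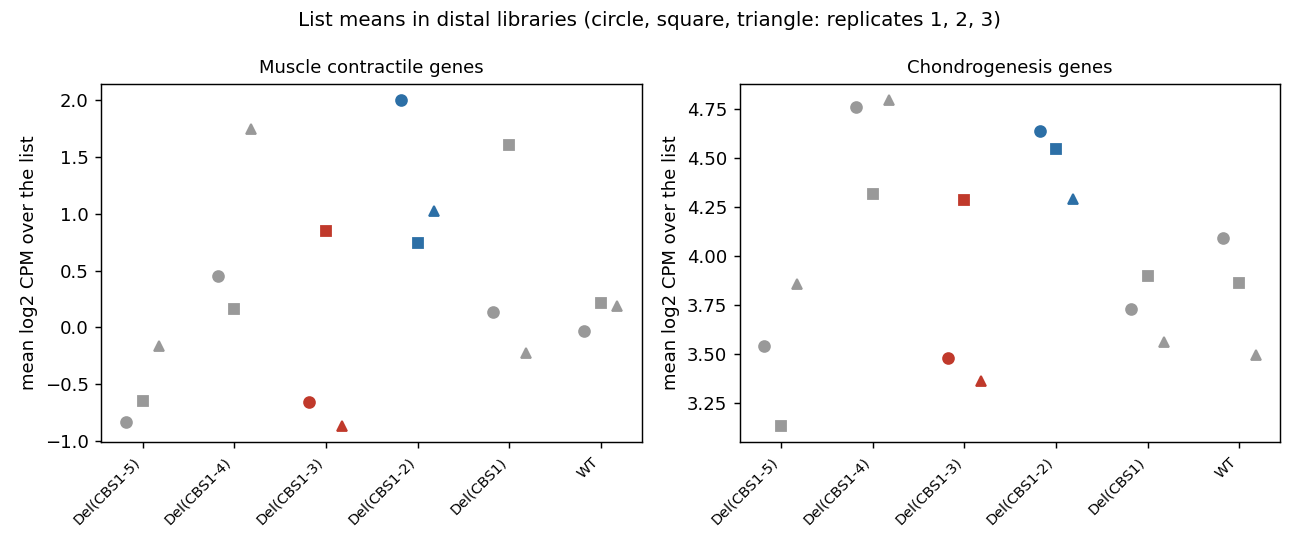
Mean log2 CPM over the muscle contractile list (left) and the chondrogenesis list (right) in each distal library, by genotype. Del(CBS1-3) replicate 2 (square) had 0.85 and 4.29, near the Del(CBS1-2) libraries, and the other Del(CBS1-3) libraries had -0.66 and -0.87 for muscle and 3.48 and 3.36 for cartilage.

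None of the 8 tested HoxD genes passed the test between the genotypes. Hoxd13 (chromosome 2, 74668310 to 74671599 on mm10), the gene at the digit end of the cluster, had 844, 791 and 949 CPM in Del(CBS1-3), against 805, 888 and 831 CPM in Del(CBS1-2). The groups overlapped, and the means were 861 ± 80.6 and 841 ± 42.4 CPM (SD, n = 3 each). The log2 fold change of Hoxd13 was 0.04 ± 0.08 (SE), with a 95% confidence interval from -0.12 to 0.21 and an adjusted p of 0.798 (edgeR quasi-likelihood test, Benjamini-Hochberg over 15361 genes). Hoxd12 (74675013 to 74677705) had 332, 272 and 361 CPM in Del(CBS1-3), against 300.2, 346 and 335 CPM in Del(CBS1-2). Del(CBS1-3) held both the lowest and the highest Hoxd12 value, and the log2 fold change was -0.02 ± 0.09 (interval -0.21 to 0.18).

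Hoxd11 (74682323 to 74684168) and Hoxd10 (74691924 to 74695105) lie in the middle of the cluster, and neither passed the test. Hoxd11 had 51.0, 42.4 and 42.2 CPM in Del(CBS1-3), against 39.5, 37.4 and 48.8 CPM in Del(CBS1-2), a log2 fold change of 0.12 ± 0.11 (interval -0.12 to 0.36). Hoxd10 had 52.3, 51.0 and 58.9 CPM in Del(CBS1-3), against 49.0, 49.5 and 57.0 CPM in Del(CBS1-2). The 6 Hoxd10 values interleaved, and the log2 fold change was 0.07 ± 0.07 (interval -0.08 to 0.22).

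The genes further toward the telomeric side were low in distal tissue and less tightly measured. Hoxd9 had 12.6, 9.45 and 8.55 CPM in Del(CBS1-3), against 10.4, 6.67 and 9.88 CPM in Del(CBS1-2) (log2 fold change 0.20 ± 0.22, interval -0.27 to 0.66). Hoxd8 averaged 3.96 ± 0.956 CPM in Del(CBS1-3) and 3.29 ± 0.981 CPM in Del(CBS1-2), with a log2 fold change of 0.29 ± 0.44. Hoxd4 averaged 1.69 ± 0.429 CPM in Del(CBS1-3) and 1.301 ± 0.426 CPM in Del(CBS1-2) (0.38 ± 0.49). Hoxd3 rested on 8, 2 and 2 reads in Del(CBS1-3), against 5, 1 and 2 reads in Del(CBS1-2), too few for its log2 fold change of 0.82 ± 0.92 to be read as a direction. Hoxd1 had 0 reads in all 6 libraries and was not tested. In all, 0 of 8 HoxD genes were called by edgeR or DESeq2 and 0 of the 7 that limma tested on filtered FPKM, and 0 had an unadjusted p under 0.05 in these fits. Over all 15361 genes, 6.53% were called. The median log2 fold change was 0.16 over the 8 HoxD genes and 0.01 over all genes tested.

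Per length, the order of the HoxD genes was the same in both genotypes. In FPKM, Hoxd13 had 240 ± 24.2 in Del(CBS1-3) and 234 ± 13.5 in Del(CBS1-2). It was followed by Hoxd12 with 87.6 ± 12.6 and 89.2 ± 6.93 FPKM, and by Hoxd11 with 22.2 ± 2.67 and 20.3 ± 3.16 FPKM. Hoxd10 had 19.5 ± 1.68 FPKM in Del(CBS1-3) and 19.1 ± 1.63 FPKM in Del(CBS1-2), so Hoxd11 and Hoxd10 did not differ beyond their spread. Hoxd9, at 3.24 ± 0.633 and 2.86 ± 0.621 FPKM, and Hoxd8, at 1.26 ± 0.113 and 0.985 ± 0.340 FPKM, came below them (SD, n = 3 each, Del(CBS1-3) before Del(CBS1-2)).

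**Figure D2:**
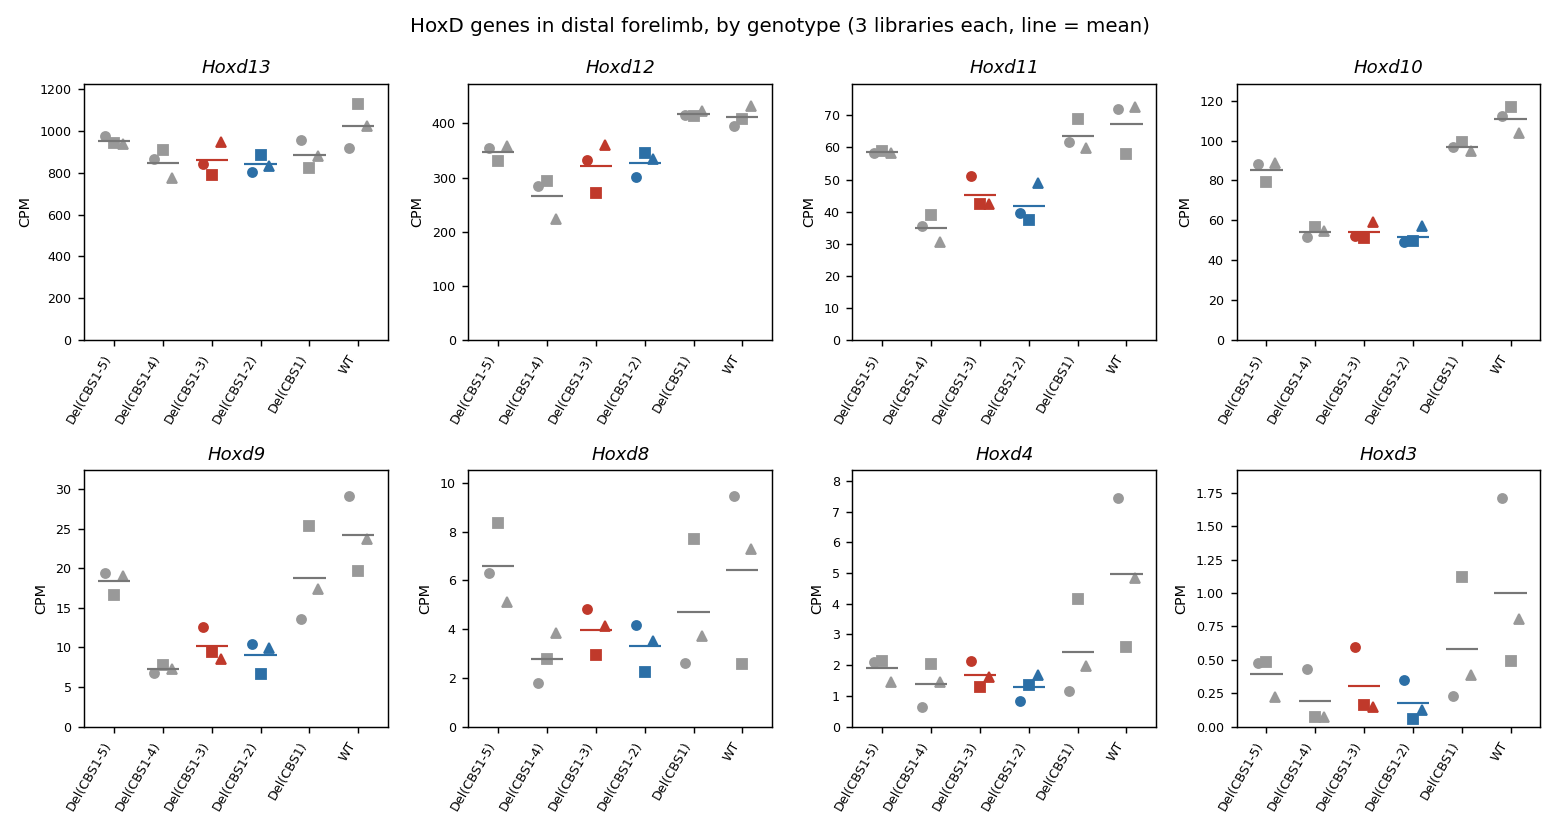
CPM of 8 HoxD genes in each distal library, by genotype from the largest deletion to wild type (points: libraries, line: group mean; every axis starts at 0). Del(CBS1-3) and Del(CBS1-2) overlap in every panel, with group means of 54.1 and 51.8 CPM for Hoxd10 against 111 CPM in wild type.

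Both genotypes lay below the WT in these genes, and the 2 contrasts share the WT libraries. For Hoxd10, which had 113, 117 and 104 CPM in WT, the log2 fold change was -1.05 in Del(CBS1-3) (adjusted p = 2.36e-07) and -1.12 in Del(CBS1-2) (adjusted p = 7.06e-08). In bulk tissue, fewer expressing cells and less RNA per cell cannot be told apart. Hoxd10 was the one gene of all tested (0.00651%) called between distal Del(CBS1-3) and WT. Between distal Del(CBS1-2) and WT, 1606 genes were called (10.5%), 686 up and 920 down. For Hoxd9, with 19.6 to 29.1 CPM in WT, the log2 fold changes were -1.25 in Del(CBS1-3) (adjusted p = 0.0725) and -1.45 in Del(CBS1-2) (adjusted p = 0.00143). For Hoxd11 they were -0.59 (adjusted p = 0.0725) and -0.71 (adjusted p = 0.00193), and for Hoxd13 -0.26 (adjusted p = 0.168) and -0.30 (adjusted p = 0.0205). A call against WT in one genotype and not in the other is not a test of their difference, which for each of these genes did not pass.

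Of 11 tested genes flanking the cluster, 1 rose and 0 fell, a share near the 6.53% called over all genes. Evx2, the homeobox gene next to Hoxd13 that shares its digit enhancers, had 93.4, 82.6 and 107 CPM in Del(CBS1-3), against 95.4, 106 and 109 CPM in Del(CBS1-2) (log2 fold change -0.13 ± 0.11). Lnpk, which encodes an endoplasmic reticulum junction protein and lies within the same regulatory domain, had 84.8, 89.3 and 97.7 CPM against 79.4, 89.2 and 89.9 CPM in Del(CBS1-2) (0.08 ± 0.12). Mtx2, on the telomeric side, had 60.9, 62.8 and 56.3 CPM against 64.8, 60.9 and 56.9 CPM in Del(CBS1-2) (-0.01 ± 0.06).

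The flanking gene that rose was Nfe2l2 (chromosome 2, 75675513 to 75704641), which encodes the oxidative stress factor NRF2. Nfe2l2 had 44.2, 41.5 and 44.1 CPM in Del(CBS1-3), against 35.8, 36.8 and 36.9 CPM in Del(CBS1-2). The groups did not overlap, and the log2 fold change was 0.25 ± 0.07 (edgeR adjusted p = 0.0316). Nfe2l2 kept its call in 1 of 6 fits that left out 1 library, with an adjusted p of up to 0.126. Atf2, a leucine zipper factor gene on the centromeric side, had 124, 123 and 133 CPM in Del(CBS1-3), against 110, 118 and 114 CPM in Del(CBS1-2), and just missed the threshold (0.16 ± 0.05, adjusted p = 0.0512).

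Across the genome, 451 genes rose (2.94%) and 552 fell (3.59%) of 15361 tested. Of these, 75 rose and 125 fell by more than 2-fold. All 3 Del(CBS1-3) libraries lay above all 3 Del(CBS1-2) libraries in 2009 genes (13.1%) and below them in 2337 genes (15.2%). The count depended on single libraries. It was 1439 without Del(CBS1-3) replicate 2, 221 without replicate 1 and 200 without replicate 3 of that group, and 393, 218 and 339 without Del(CBS1-2) replicates 1, 2 and 3. With the muscle score as a covariate 53 genes were called, and with the Xist level as a covariate 225. An unadjusted p under 0.05 was found in 3500 of the 15361 genes, in 2066 with the muscle score and in 2883 with the Xist level. Of the 58 called genes named as flanking genes, by rank or among the first of a list by p, 19 passed the test in each of the 6 fits that left out 1 library. Genes named only for the tissue difference and those added after their values were seen, such as Acan, Comp and Fgf8, are outside this count. Chromosome 2, which carries HoxD, had 41 genes up and 36 down of 1242 tested (6.2%). The share called ran from 5.15% on chromosome 7 to 11.6% on chromosome 17, where 37 genes rose and 53 fell of 774.

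The differences of largest fold change were in processed copies of other genes, intronless copies made by reverse transcription of a spliced RNA. All 7 listed copies rose, a list drawn up with their behaviour in these data known. Rps18-ps6, a copy of the ribosomal protein gene Rps18, lies on the minus strand of chromosome 13 at 97760072 to 97760632. Rps18-ps6 had 170, 151 and 176 CPM in Del(CBS1-3), against 0.141, 0.171 and 0.125 CPM in Del(CBS1-2). The log2 fold change of Rps18-ps6 was 10.07 ± 0.64 (edgeR adjusted p = 8.4e-08), a size that depends on the prior count of the fit because the Del(CBS1-2) libraries were near 0. Rps18 itself, on chromosome 17, went the other way, with 4.45, 3.75 and 2.43 CPM in Del(CBS1-3), against 73.0, 73.0 and 74.6 CPM in Del(CBS1-2) (log2 fold change -4.37 ± 0.84, adjusted p = 0.00877).

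A read of 50 nucleotides can tell a copy from its parent only where their sequences differ, so 60-base stretches of 3 pairs are shown from the GENCODE transcripts of GRCm38 (mm10). Capitals mark the bases at which copy and parent differ.
Rps18-ps6: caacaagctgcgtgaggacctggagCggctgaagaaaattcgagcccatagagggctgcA
Rps18: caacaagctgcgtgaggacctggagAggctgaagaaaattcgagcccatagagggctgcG
Pcna-ps2: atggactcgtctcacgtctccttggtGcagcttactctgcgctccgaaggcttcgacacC
Pcna: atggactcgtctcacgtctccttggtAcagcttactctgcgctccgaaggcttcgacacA
Glo1-ps: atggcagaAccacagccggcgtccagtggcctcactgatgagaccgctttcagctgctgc
Glo1: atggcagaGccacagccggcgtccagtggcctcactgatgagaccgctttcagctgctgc
The stretches start at base 312 of the Rps18 coding sequence, 118 of that of Pcna and 1 of that of Glo1. Over the aligned coding bases, Rps18-ps6 matched Rps18 at 452 of 456, Pcna-ps2 matched Pcna at 775 of 781 (of 783 in the coding sequence) and Glo1-ps matched Glo1 at 549 of 552. Of the 50-base windows of Rps18-ps6, 18 of 512 (3.52%) were found in no other transcript of the annotation. The share was 11% for Hmga1b, 21.5% for Glo1-ps, 27.8% for Rnps1-ps, 36.2% for Pcna-ps2, 9.86% for Atp6v0c-ps2 and 90.5% for Rps15a-ps8. Except for Rps15a-ps8, which shares 4.73% of its windows with Rps15a, reads from a copy and its parent can therefore be split or swapped between them, and the level of either one alone is uncertain.

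Summed over copy and parent, some pairs still differed and others did not stand apart. The Rps18 pair summed to 174, 155 and 179 CPM in Del(CBS1-3), against 73.2, 73.2 and 74.7 CPM in Del(CBS1-2). Of 512 windows of Rps18-ps6, 290 (56.6%) also occurred in Rps18 and 18 in no other transcript. The rest occurred in transcripts outside the pair, so reads may be split with those too and this sum is uncertain. The Glo1 pair, whose parent encodes a glyoxalase that clears methylglyoxal, summed to 136, 126 and 142 CPM in Del(CBS1-3), against 65.7, 60.9 and 59.9 CPM in Del(CBS1-2). In both pairs the groups were far apart. The pair of Pcna, the sliding clamp of DNA polymerase, summed to 164, 156 and 175 CPM in Del(CBS1-3), against 163, 158 and 151 CPM in Del(CBS1-2), and that of Hmga1, a chromatin protein, to 75.7, 58.8 and 66.2 CPM against 62.9, 76.4 and 71.1 CPM in Del(CBS1-2). These 2 pairs overlapped between the genotypes. The Rnps1 pair, of a splicing activator, averaged 69.4 ± 6.17 CPM in Del(CBS1-3) and 85.6 ± 3.26 CPM in Del(CBS1-2), and the Atp6v0c pair, of a proton pump subunit, 10.3 ± 1.92 and 19.9 ± 1.18 CPM (SD, n = 3 each). No test was made on the sums.

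Single members moved as follows. Glo1 had 125, 115 and 131 CPM in Del(CBS1-3), against 65.6, 60.8 and 59.9 CPM in Del(CBS1-2) (log2 fold change 1.01 ± 0.11, edgeR adjusted p = 4.76e-05), so that it rose beside its copy. Pcna-ps2 had 45.1, 21.4 and 25.6 CPM in Del(CBS1-3), against 0.352, 0.456 and 0.626 CPM in Del(CBS1-2). Hmga1b had 28.7, 44.6 and 53.6 CPM against 0.282, 0.57 and 0.313 CPM in Del(CBS1-2). Rps15a-ps8 had 118 reads over the Del(CBS1-3) libraries and 0 over those of Del(CBS1-2). Against a floor of 3 reads over the group, Rps15a-ps8 was at least 48-fold higher in CPM, and 2 of its 3 Del(CBS1-3) libraries carried the signal (4.155, 0.0814 and 4.495 CPM).

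Rpl26, a ribosomal protein gene of chromosome 11, fell to 1.11, 2.44 and 1.25 CPM in Del(CBS1-3), against 52.4, 54.5 and 51.3 CPM in Del(CBS1-2) (log2 fold change -5.04 ± 1.10, edgeR adjusted p = 0.0151). Its processed copy Gm15772 on chromosome 5 had 57.9, 59.3 and 58.8 CPM in Del(CBS1-3), against 27.2, 28.8 and 25.4 CPM in Del(CBS1-2) (1.12 ± 0.83, adjusted p = 0.446). The groups of Gm15772 lay far apart here, while the 3 WT libraries of the same fit had 53.8, 0.21 and 26.9 CPM. Summed, Gm15772 and Rpl26 had 59.0, 61.7 and 60.05 CPM in Del(CBS1-3), against 79.6, 83.3 and 76.7 CPM in Del(CBS1-2). In WT the sums were 56.1, 93.4 and 80.05 CPM. Of the windows of Gm15772, 74.3% also occurred in Rpl26 and 8.48% in no other transcript. Reads may thus be split or swapped within this pair, so the level of Rpl26 alone is uncertain. Rpl26 kept its call in 4 of the 6 fits that left out 1 library. Such levels also differed between embryos of one genotype: Rps18-ps6 had 143, 65.6 and 81.1 CPM in WT replicates 1 to 3, where Rps18 had 5.13, 36.3 and 39.5 CPM. Rpl26 had 2.33, 93.2 and 53.1 CPM in the same WT embryos. The parents Rps18, Glo1, Hmga1, Rnps1 and Atp6v0c all lie on chromosome 17.

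Both genotypes were set against the same WT libraries. The log2 fold change of Rps18-ps6 was 0.77 ± 0.28 in Del(CBS1-3) (edgeR adjusted p = 0.246) and -9.30 ± 0.66 in Del(CBS1-2) (adjusted p = 2.01e-07). That of Pcna-ps2 was -0.29 ± 0.27 in Del(CBS1-3) and -6.27 ± 0.44 in Del(CBS1-2), and that of Glo1 was 0.26 ± 0.11 and -0.75 ± 0.11. For Pcna-ps2 and Rps15a-ps8, a level near 0 was not particular to Del(CBS1-2). Pcna-ps2 had 0.41, 0.826 and 0.586 CPM in distal Del(CBS1-5). Rps15a-ps8 had at most 0.207 CPM in distal Del(CBS1-5) and 0.128 CPM in distal Del(CBS1), and 0.0619 CPM in WT replicate 3. Rps18-ps6 and Glo1-ps had at least 60.5 and 4.17 CPM in every distal library outside Del(CBS1-2). In the same libraries Rnps1-ps, Hmga1b and Atp6v0c-ps2 had at least 12.9, 17.6 and 3.34 CPM, so these 5 copies were near 0 in distal Del(CBS1-2) alone.

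**Figure D3:**
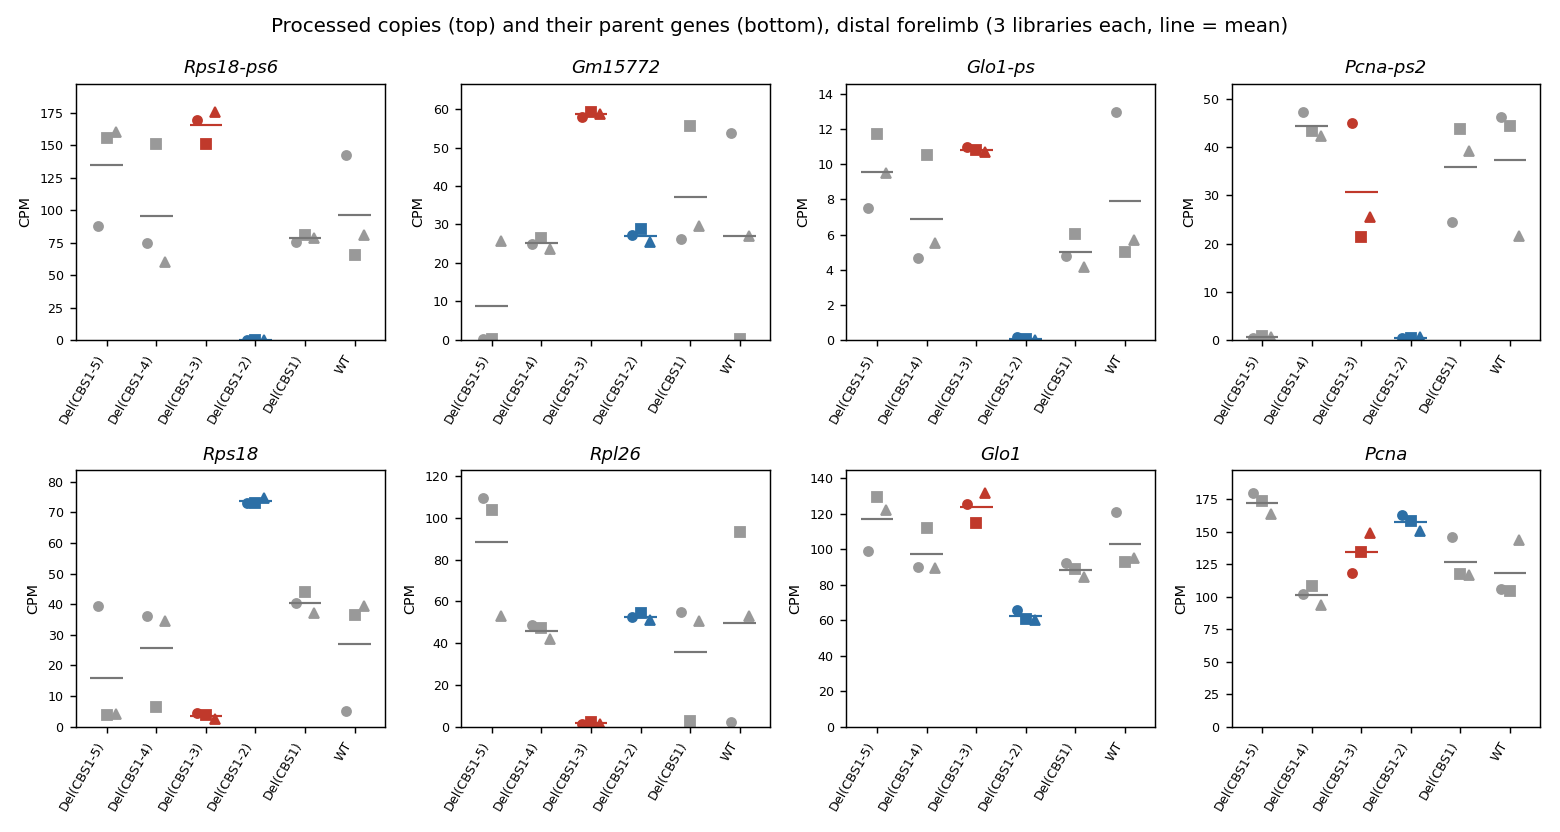
CPM of 4 processed copies (top) and their parent genes (bottom) in each distal library by genotype (points: libraries, line: group mean; every axis starts at 0). Rps18-ps6 had 151 to 176 CPM in Del(CBS1-3) and at most 0.171 CPM in Del(CBS1-2), while Rps18 had 2.43 to 4.45 and 73.0 to 74.6 CPM, and libraries of other genotypes lay between or at these levels.

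Genes were ranked if they were called, had a gene name, at least 50 counts on average in the group with more, and no overlap. Outside the copies, the largest rises among these were those of Hemgn, Dynlt1a, Eomes, Nefm, H2-K1 and Dusp26. Eomes (chromosome 9), a T-box transcription factor gene, had 30.6, 27.5 and 37.8 CPM in Del(CBS1-3), against 6.05, 12.4 and 5.63 CPM in Del(CBS1-2). The groups did not overlap, and the log2 fold change was 1.99 ± 0.39 (edgeR adjusted p = 0.0102). Nefm (chromosome 14), which encodes a neurofilament subunit of axons, had 12.7, 13.8 and 14.8 CPM in Del(CBS1-3), against 4.79, 3.65 and 3.69 CPM in Del(CBS1-2) (1.78 ± 0.37, adjusted p = 0.0124). Dusp26, a protein phosphatase gene, had 3.86, 5.62 and 2.73 CPM against 1.055, 0.799 and 1.81 CPM in Del(CBS1-2) (1.74 ± 0.34). Eomes and H2-K1 passed the test without any 1 of the 6 libraries, Dusp26 without any but Del(CBS1-2) replicate 2, and Nefm in 4 of these 6 fits, while Hemgn (2.37 ± 0.70) passed in 1 and Dynlt1a (2.02 ± 0.52) in 2. H2-K1 and H2-Q7, of the major histocompatibility complex on chromosome 17, and Dynlt1a, a dynein light chain gene, belong to families of near-identical genes, among which short reads may be split. H2-K1 had 3.71, 5.70 and 4.05 CPM in Del(CBS1-3), against 1.27, 0.913 and 1.81 CPM in Del(CBS1-2). H2-Q7 had 0.148, 0 and 0.0737 CPM in Del(CBS1-3), against 5.91, 7.07 and 7.69 CPM in Del(CBS1-2).

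Among the genes with the largest falls by the same ranking, Hand1, Grin3a and Col24a1 passed the test without any 1 of the 6 libraries. Hand1 (chromosome 11), a basic helix-loop-helix factor gene, had 1.93, 1.22 and 1.47 CPM in Del(CBS1-3), against 7.60, 10.8 and 9.82 CPM in Del(CBS1-2) (log2 fold change -2.59 ± 0.40, edgeR adjusted p = 0.00241). Grin3a (chromosome 4), which encodes a subunit of NMDA glutamate receptors, had 2.89, 4.24 and 4.13 CPM in Del(CBS1-3), against 20.6, 18.4 and 17.0 CPM in Del(CBS1-2) (-2.30 ± 0.35, adjusted p = 0.0022). Col24a1 (chromosome 3), a fibrillar collagen gene, had 6.08, 10.8 and 8.62 CPM against 38.5, 34.9 and 34.7 CPM in Del(CBS1-2) (-2.08 ± 0.36, adjusted p = 0.00457). In these 3 genes the groups did not overlap. The other log2 fold changes were -2.43 for the Iroquois gene Irx6, -2.75 for the adrenergic receptor gene Adra2a, -2.12 for the potassium channel subunit gene Kcne4, -2.03 for the synaptic scaffold gene Dlgap1, -2.17 for the pseudogene Nlrp5-ps and -1.96 for the muscle gene Klhl41. These 6 lost their calls in 2 to 5 of the 6 fits that left out 1 library, with adjusted p-values of up to 0.162.

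Of 21 tested chondrogenesis genes, 7 were lower in Del(CBS1-3) than in Del(CBS1-2), 1 was higher and 13 did not pass the test, where 3.59% of all genes were lower. The median log2 fold change was -0.66 over the list and 0.01 over all genes. Fgfr3, a receptor that restrains chondrocyte growth, had 66.7, 60.02 and 64.5 CPM in Del(CBS1-3), against 93.5, 117 and 109 CPM in Del(CBS1-2) (log2 fold change -0.73 ± 0.14, edgeR adjusted p = 0.00763), and kept its call without any 1 library. Col11a2, a cartilage fibril collagen gene, had 49.8, 79.7 and 33.5 CPM against 124, 139 and 119 CPM in Del(CBS1-2) (-1.22 ± 0.26). Acan, which encodes the aggregating proteoglycan of cartilage, had 15.9, 31.03 and 8.62 CPM against 45.2, 48.2 and 45.03 CPM in Del(CBS1-2), and also passed the test. The groups did not overlap in these genes, and replicate 2 was the highest of the Del(CBS1-3) libraries for Col11a2 and Acan.

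Matn3, a cartilage matrix protein gene, fell by 1.36 and Runx3, a Runt factor of chondrocyte maturation, by 1.54 on the log2 scale. Comp, a matrix gene that binds collagen, rose (3.27, 2.69 and 2.06 CPM in Del(CBS1-3), against 0.774, 0.856 and 0.688 CPM in Del(CBS1-2)), but in none of the 6 fits that left out 1 library. Sox9, the factor that starts the chondrocyte programme, had 396, 415 and 330 CPM in Del(CBS1-3), against 422, 398 and 345 CPM in Del(CBS1-2) (-0.02 ± 0.11), and Col2a1, the main collagen of cartilage, had 1051, 1408 and 797 CPM against 1529, 1559 and 1522 CPM in Del(CBS1-2) (-0.49 ± 0.15, adjusted p = 0.0577). Sox9 overlapped between the genotypes, and Col2a1 did not overlap but missed the threshold. Against WT, Del(CBS1-2) was the genotype with calls in Col11a2, Matn3 and Runx3. Fgfr3 was called over WT in neither genotype, with log2 fold changes of -0.38 in Del(CBS1-3) and 0.36 in Del(CBS1-2) (edgeR adjusted p = 0.246 and 0.0985). The log2 fold change over WT was -0.23 in Del(CBS1-3) (edgeR adjusted p = 0.753) and 0.99 in Del(CBS1-2) (adjusted p = 0.0221) for Col11a2, -0.22 and 1.13 for Matn3, and 0.23 and 1.77 for Runx3. The summed level of the list was 2388 to 3730 CPM in Del(CBS1-3), 3922 to 4157 CPM in Del(CBS1-2) and 2615 to 3173 CPM in WT. Without Del(CBS1-3) replicate 2, 13 chondrogenesis genes fell. Without replicates 1 or 3 of that group 1 fell, without Del(CBS1-2) replicates 1, 2 or 3 it was 2, 1 and 4, and with the muscle score or the Xist level as covariate it was 1 each.

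Of 12 tested Hedgehog pathway genes, 5 fell, 0 rose and 7 did not pass the test, where 3.59% of all genes fell. The median was -0.42 on the log2 scale. Ihh, the ligand made by maturing chondrocytes, had 3.27, 5.05 and 1.70 CPM in Del(CBS1-3), against 9.99, 13.9 and 7.38 CPM in Del(CBS1-2) (log2 fold change -1.64 ± 0.40, edgeR adjusted p = 0.0238). Cdon, a Hedgehog co-receptor, had 224, 265 and 209 CPM against 353, 347 and 332 CPM in Del(CBS1-2) (-0.55 ± 0.10, adjusted p = 0.00712). Ptch1, the receptor that the pathway itself induces, had 143, 145 and 147 CPM against 169, 209 and 173 CPM in Del(CBS1-2) (-0.33 ± 0.09). The groups of all 3 genes stood apart. Gli3, the main repressor of the pathway in limbs, fell by 0.43 and Gli2, an activator, by 0.41 on the log2 scale. Gli1, a further target, had 76.6, 93.0 and 69.9 CPM in Del(CBS1-3), against 112, 120 and 110 CPM in Del(CBS1-2) and missed the threshold (-0.50 ± 0.15, adjusted p = 0.0516). Over WT the log2 fold change of Cdon was -0.22 in Del(CBS1-3) (adjusted p = 0.351) and 0.33 in Del(CBS1-2) (adjusted p = 0.0421), and that of Ihh was -0.28 and 1.36. Shh was under the count filter. Cdon kept its call without any 1 library, while Ihh and Ptch1 kept it in 2 of these 6 fits and Gli3 in 1, with adjusted p-values of up to 0.167. The count was 9 without Del(CBS1-3) replicate 2 and 1 or 2 without any other library. With the muscle score as covariate, 0 Hedgehog genes were called by edgeR and the median was -0.36. Of the 12 genes, 6 had an unadjusted p under 0.05 in that fit, against 2066 of all 15361. With the Xist level as covariate 1 was called and the median was -0.37.

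Of 11 joint interzone genes, 5 fell, 0 rose and 6 did not pass the test, with a median of -0.68, where 3.59% of all genes fell. Gdf5, a growth factor that marks the forming joint, had 72.6, 139 and 60.9 CPM in Del(CBS1-3), against 181, 191 and 168 CPM in Del(CBS1-2) (log2 fold change -0.98 ± 0.26, edgeR adjusted p = 0.0307). Osr1, a zinc finger factor of connective tissue and joints, had 9.27, 20.9 and 8.25 CPM against 46.9, 42.5 and 31.6 CPM in Del(CBS1-2) (-1.65 ± 0.39, adjusted p = 0.0199). Nog, a secreted inhibitor of bone morphogenetic proteins, had 15.8, 25.6 and 10.8 CPM against 31.3, 35.1 and 35.9 CPM in Del(CBS1-2) (-0.97 ± 0.28). In all of these genes the groups did not overlap, and Del(CBS1-3) replicate 2 was nearest to Del(CBS1-2). Gdf6, a relative of Gdf5, fell by 0.68 and Erg, an ETS factor of joints and endothelium, by 0.50 on the log2 scale. Without Del(CBS1-3) replicate 2 the joint count was 8, and without any other 1 library it was 0 or 1. With the muscle score as covariate 0 joint genes were called by edgeR, with 5 at an unadjusted p under 0.05 and a median of -0.41. The Xist level as covariate also left 0, with 5 at an unadjusted p under 0.05 and a median of -0.63. Over all 15361 genes, 2066 had such a p with the muscle score and 2883 with the Xist level. Over WT the log2 fold change of Gdf5 was -0.13 in Del(CBS1-3) and 0.85 in Del(CBS1-2) (edgeR adjusted p = 0.869 and 0.0407). Of 15 tendon and connective tissue genes, 3 fell (Fbn2, Col5a1 and Col5a2, which encode a fibrillin and 2 fibrillar collagen chains, by 0.31, 0.39 and 0.45), and 5 without Del(CBS1-3) replicate 2 but 0 or 1 without any other library. The tendon median was 0.02 with the muscle score and -0.35 with the Xist level as covariate, in place of -0.39, with 0 genes called by edgeR under either and 1 and 5 at an unadjusted p under 0.05. The tendon factor Scx had 30.9, 45.4 and 20.04 CPM in Del(CBS1-3), against 36.03, 30.3 and 37.0 CPM in Del(CBS1-2).

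**Figure D4:**
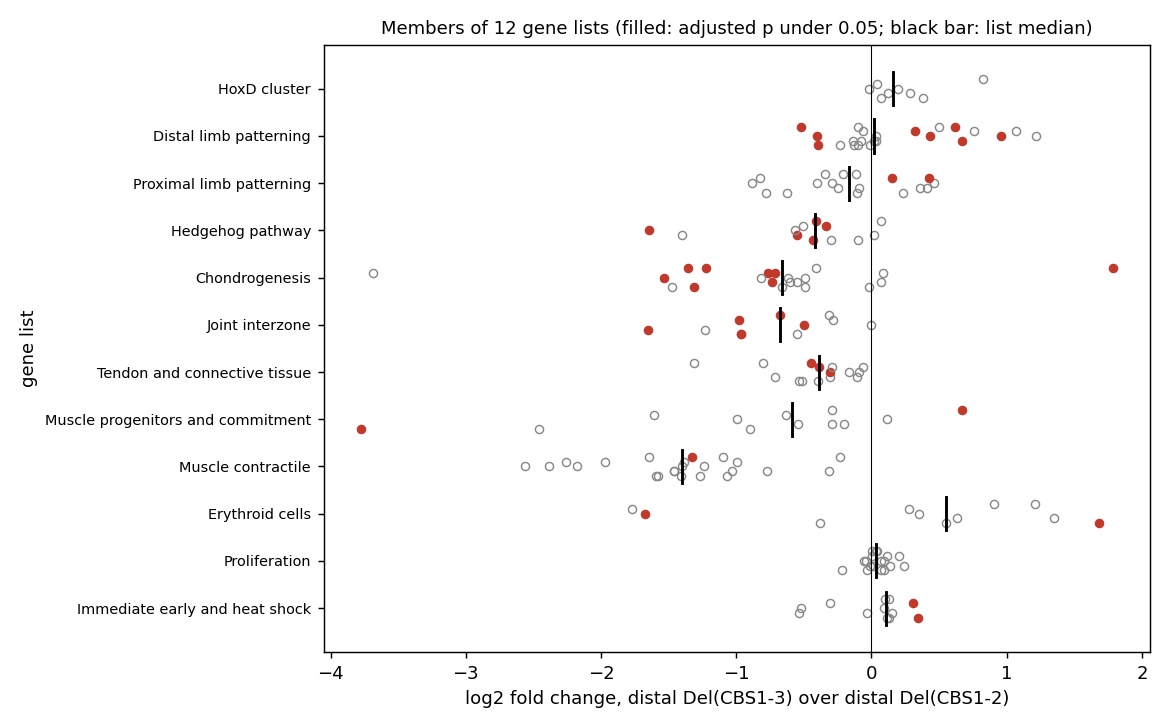
Log2 fold change of distal Del(CBS1-3) over distal Del(CBS1-2) for the tested members of 12 gene lists (filled points: adjusted p under 0.05, black bar: list median). The medians were -0.66 for chondrogenesis, -0.68 for joint interzone, -0.42 for Hedgehog and -1.40 for muscle contractile genes, against 0.16 for HoxD.

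Of 23 muscle contractile genes, edgeR called 1 as lower and 0 as higher, a share near the 3.59% of all genes that fell. The median log2 fold change was -1.40, and the highest was -0.24. Of the 23, 14 had an unadjusted p under 0.05, against 3500 of all 15361 genes. In 8 all 3 Del(CBS1-3) libraries were lower without overlap, against 15.2% of all genes. DESeq2 called 4, limma on filtered FPKM 2, edgeR with no count filter 16 and edgeR with a replicate block 0. Tnnt1, which encodes a slow troponin, had 4.30, 8.71 and 3.61 CPM in Del(CBS1-3), against 17.1, 14.2 and 10.6 CPM in Del(CBS1-2) (-1.33 ± 0.37, edgeR adjusted p = 0.0404), and kept its call in 1 of the 6 fits that left out 1 library. Myh3, the embryonic myosin heavy chain gene, had 3.12, 11.7 and 1.77 CPM in Del(CBS1-3), against 27.8, 10.9 and 10.7 CPM in Del(CBS1-2), so that replicate 2 fell among the Del(CBS1-2) libraries. Without that library 8 contractile genes fell, and without any other library 0. In the proximal libraries of these genotypes Myh3 had 479 to 761 CPM in Del(CBS1-3) and 662 to 771 CPM in Del(CBS1-2). The summed level of the list was 40.6 to 101 CPM in distal Del(CBS1-3), 112 to 197 CPM in distal Del(CBS1-2) and 61.1 to 68.0 CPM in distal WT. The part that muscle and cartilage content played in the other results was not tested. The muscle score comes from the same counts and went largely with genotype, so the covariate fit above cannot tell muscle content from genotype. No fit had a cartilage covariate. Of 12 tested muscle progenitor genes, Met, the receptor used by migrating muscle precursors, rose by 0.67 and Msc, a helix-loop-helix factor gene of low level here, fell, with a median of -0.59. Over all genes 2.94% rose and 3.59% fell. Msc had 0, 0.326 and 0 CPM in Del(CBS1-3), against 2.46, 1.08 and 1.063 CPM in Del(CBS1-2). Met kept its call without any 1 library and Msc in 1 of 6 fits.

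Of 23 genes of distal limb patterning, 5 rose and 3 fell, where 2.94% of all genes rose and 3.59% fell. Hand2, a factor of the posterior limb, had 205, 174 and 219 CPM in Del(CBS1-3), against 137, 141 and 114 CPM in Del(CBS1-2) (log2 fold change 0.62 ± 0.09, edgeR adjusted p = 0.00213). Fgf8, the growth factor of the apical ridge, had 10.5, 6.27 and 6.78 CPM against 4.43, 3.48 and 4.32 CPM in Del(CBS1-2) (0.96 ± 0.22, adjusted p = 0.0204). Sall1, a zinc finger factor, had 174, 149 and 220 CPM against 107, 115 and 121 CPM in Del(CBS1-2) (0.67 ± 0.17), and Cyp26b1, which breaks down retinoic acid, had 533, 433 and 496 CPM against 371, 393 and 416 CPM (0.32 ± 0.08). The groups of these 4 genes did not overlap. Lhx9, a LIM homeobox gene of the distal mesenchyme, also rose (0.43 ± 0.11), with overlapping groups. Msx1, a homeobox gene of undifferentiated mesenchyme, went down, with 359, 353 and 316 CPM in Del(CBS1-3), against 471, 489 and 525 CPM in Del(CBS1-2) (-0.52 ± 0.10, adjusted p = 0.00754). The signalling ligand genes Jag2 and Bmp7 each fell by 0.40 on the log2 scale. Hand2 and Msx1 kept their calls without any 1 library, and Jag2 and Bmp7 lost theirs in 1 fit each, at adjusted p-values of 0.0522 without Del(CBS1-3) replicate 3 and 0.0501 without Del(CBS1-2) replicate 2. Of the list, 8 genes rose and 4 fell without Del(CBS1-3) replicate 2, and 1 or 2 rose and 2 or 3 fell without any other library. With the muscle score as a covariate 0 of the 23 were called by edgeR, with 9 at an unadjusted p under 0.05. With the Xist level as a covariate 1 rose and 2 fell, with 11 at an unadjusted p under 0.05. Over all 15361 genes, 2066 had such a p with the muscle score and 2883 with the Xist level.

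The list medians were 0.02 for distal patterning and -0.16 for 18 genes of proximal patterning, of which Pbx2, a cofactor of Hox proteins, rose by 0.15 and Tbx15, a T-box gene, by 0.42, each with a call in 1 of the 6 fits that left out 1 library. Over all genes 2.94% rose, and 6.53% were called in either direction. Of 15 HoxA entries 1, Evx1os, an antisense transcript beside Evx1, rose (0.86 ± 0.20, edgeR adjusted p = 0.0214). It had 19.1, 14.3 and 23.1 CPM in Del(CBS1-3), against 11.6, 7.93 and 11.9 CPM in Del(CBS1-2). Evx1os kept its call in 3 of the 6 fits that left out 1 library, and as an antisense gene its reads may be shared with its partner, since the use of strand in counting is not given in the sources used here. Hoxa11, a gene of the forearm domain, had 55.4, 36.7 and 41.0 CPM against 26.6, 14.7 and 20.5 CPM in Del(CBS1-2) with no overlap but without passing the test (1.13 ± 0.42, adjusted p = 0.119). The distal gene Hoxa13 had 187, 167 and 205 CPM against 172, 187 and 179 CPM in Del(CBS1-2) (0.07 ± 0.06). Of 15 tested HoxB and HoxC genes, 0 were called by edgeR, DESeq2 or limma. In edgeR 3 had an unadjusted p under 0.05, against 3500 of all 15361 genes.

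Of 11 tested erythroid genes, 1 globin gene rose and another fell, where 2.94% of all genes rose and 3.59% fell. Hbb-bh1, an embryonic beta-type globin gene, had 219, 124 and 346 CPM in Del(CBS1-3), against 50.2, 70.5 and 95.2 CPM in Del(CBS1-2) (log2 fold change 1.68 ± 0.48, edgeR adjusted p = 0.0461). Hbb-bt, an adult beta globin gene, had 12.8, 11.1 and 17.6 CPM against 47.4, 41.1 and 44.9 CPM in Del(CBS1-2) (-1.67 ± 0.31, adjusted p = 0.00754). Neither gene overlapped between the groups, and near-identical globin genes may share reads. Hbb-bt kept its call without any 1 library and Hbb-bh1 in 1 of 6 fits. The other 9 erythroid genes were not called, among them Hba-x with 758, 426 and 830 CPM in Del(CBS1-3), against 316, 380 and 382 CPM in Del(CBS1-2).

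Of the genes that handle chromatin loops, Esco1 and Pds5b rose among 11 tested, where 2.94% of all genes rose. The list median was 0.11. Esco1, an acetyltransferase of cohesin, had 22.9, 26.9 and 22.7 CPM in Del(CBS1-3), against 18.2, 17.1 and 18.4 CPM in Del(CBS1-2) (log2 fold change 0.44 ± 0.08, edgeR adjusted p = 0.00743), and kept its call without any 1 library. Pds5b, a regulator bound to cohesin, had 230, 231 and 249 CPM against 212, 193 and 202 CPM in Del(CBS1-2) (0.24 ± 0.05). Ctcf had 262, 244 and 283 CPM against 249, 246 and 241 CPM in Del(CBS1-2) (0.11 ± 0.05, adjusted p = 0.232), with overlapping groups. The chaperone genes Hsp90aa1 and Hsph1 rose by 0.35 and 0.31 among 12 tested immediate early and heat shock genes, against the same 2.94%. The imprinted zinc finger gene Plagl1 fell to 106, 150 and 128 CPM in Del(CBS1-3), against 214, 247 and 205 CPM in Del(CBS1-2). It was the 1 gene called of 18 imprinted genes, a share near the 6.53% called over all genes. Plagl1 passed in 1 of the 6 fits that left out 1 library, Hsph1 in 2, Hsp90aa1 in 3 and Pds5b in 4.

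The epidermal, endothelial and nerve lists had 1 call each, shares near the 6.53% of all genes. The basal keratin gene Krt14 fell by 0.40 on the log2 scale, the 1 call of 18 epidermal genes, made in 2 of the 6 fits that left out 1 library, and Erg was the 1 call of 15 endothelial genes. Nefm was the 1 call of 12 nerve and Schwann cell genes. Of 15 macrophage genes, 18 proliferation genes and 16 hypoxia and glycolysis entries, 0 were called by edgeR, with 4, 4 and 3 at an unadjusted p under 0.05. Over all 15361 genes, 3500 had such a p. By DESeq2 the counts were 0, 0 and 1, and by limma 0 in each. The summed level of the proliferation list was 5026 to 5561 CPM in Del(CBS1-3) and 5074 to 5157 CPM in Del(CBS1-2).

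The same pair of genotypes was compared in proximal forelimbs, where 617 genes rose and 533 fell of 15813 (7.27%). That count was 126 and 172 without proximal Del(CBS1-3) replicates 1 and 3, and 190, 190 and 306 without proximal Del(CBS1-2) replicates 1, 2 and 3. In proximal tissue 1 of 8 HoxD genes was called: Hoxd9 had 53.0 ± 8.99 CPM in Del(CBS1-3) and 41.2 ± 4.44 CPM in Del(CBS1-2) (log2 fold change 0.37 ± 0.09, edgeR adjusted p = 0.0283), and lost the call without Del(CBS1-3) replicates 1 or 3 or Del(CBS1-2) replicates 1 or 3. Proximal Hoxd13 had 23.8, 14.7 and 21.6 CPM in Del(CBS1-3), against 42.5, 32.8 and 28.2 CPM in Del(CBS1-2) (-0.78 ± 0.45, adjusted p = 0.289). The groups of proximal Hoxd13 did not overlap, and proximal Hoxa13 was likewise lower, with 10.2, 9.24 and 10.4 CPM in Del(CBS1-3), against 26.4, 33.1 and 22.8 CPM in Del(CBS1-2), a shift whose part in the Hoxd13 values was not tested.

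**Figure D5:**
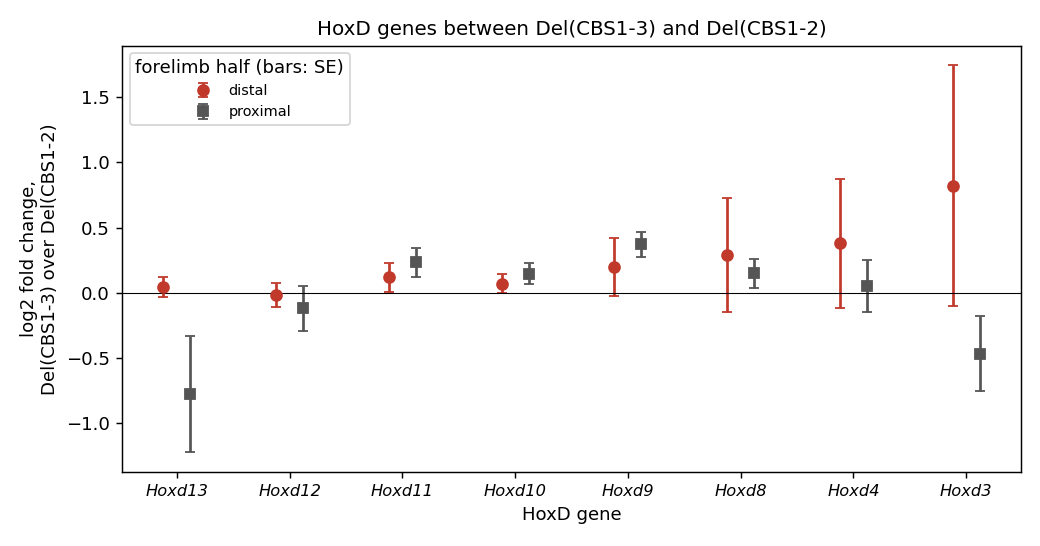
Log2 fold change of Del(CBS1-3) over Del(CBS1-2) for 8 HoxD genes in distal (circles) and proximal (squares) forelimb, with SE bars. Distal values run from -0.02 to 0.82, and Hoxd9 is the 1 gene called in proximal tissue, at 0.37.

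The distal and proximal log2 fold changes were compared in one fit of all 36 libraries. Of 16292 genes, 66 differed between the tissues (0.405%), 33 in each direction, and 160 with the embryo as a block. None of 8 HoxD genes was among them (0 called by edgeR, with or without the block, and by DESeq2; 0 at an unadjusted p under 0.05). For Hoxd13 the distal minus proximal difference was 0.81 ± 0.46. The count of 66 was 173 without distal Del(CBS1-3) replicate 2, 15 and 12 without replicates 1 and 3 of that group, and 20, 14 and 45 without distal Del(CBS1-2) replicates 1 to 3. It was 24, 90 and 5 without proximal Del(CBS1-3) replicates 1 to 3, and 10, 10 and 37 without proximal Del(CBS1-2) replicates 1 to 3.

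Eomes showed the largest difference among the 8 genes named by rank. Its proximal level was 1.53, 1.3 and 0.385 CPM in Del(CBS1-3), against 20.7, 12.1 and 14.1 CPM in Del(CBS1-2), the opposite of the distal change. The log2 fold changes were 1.99 distally and -3.84 proximally, a difference of 5.82 ± 0.82 (edgeR adjusted p = 0.00119, and 0.00809 with the embryo as block). Eomes also differed between embryos of one genotype. It had 21.0, 7.41 and 26.8 CPM in distal WT replicates 1 to 3, and 0.498, 7.68 and 11.5 CPM in proximal Del(CBS1-5) replicates 1 to 3. Nefm had 5.11, 6.50 and 3.92 CPM in proximal Del(CBS1-3), against 13.2, 9.73 and 12.01 CPM in proximal Del(CBS1-2), so that it fell there and rose distally (difference 2.93 ± 0.44, adjusted p = 0.00148). Has2, which makes hyaluronan, also turned, with 102, 88.3 and 101 CPM in distal Del(CBS1-3), against 63.8, 67.1 and 73.7 CPM in distal Del(CBS1-2), and 30.0, 35.6 and 29.3 CPM in proximal Del(CBS1-3), against 48.1, 42.8 and 40.9 CPM in proximal Del(CBS1-2) (difference 0.97 ± 0.16, adjusted p = 0.00585). Ccbe1, a gene of lymphatic development, had 8.16, 7.09 and 7.29 CPM in distal Del(CBS1-3), against 2.89, 3.14 and 3.25 CPM in distal Del(CBS1-2). Proximal Ccbe1 had 12.05, 10.1 and 11 CPM in Del(CBS1-3), against 12.3, 10.9 and 13.2 CPM in Del(CBS1-2).

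The retinoic acid binding protein gene Crabp2 had 220, 234 and 222 CPM in distal Del(CBS1-3), against 268, 259 and 264 CPM in distal Del(CBS1-2). In proximal tissue Crabp2 had 248, 232 and 266 CPM in Del(CBS1-3), against 208, 190 and 211 CPM in Del(CBS1-2) (difference -0.53 ± 0.10, edgeR adjusted p = 0.0178). Crabp2 fell distally and rose proximally, both past the threshold. Spsb4, a gene for a substrate receptor of ubiquitin ligases, had 49.3, 50.3 and 40.4 CPM in distal Del(CBS1-3), against 59.6, 70.2 and 69.7 CPM in distal Del(CBS1-2), and its proximal change did not pass the test (difference -0.72 ± 0.14).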

How the data were processed

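The series holds RNA-seq of 36 mouse E12.5 forelimb samples, in 12 groups of 3 taken from the titles. Stranded poly(A) libraries were sequenced as single reads of 50 nucleotides, per the labels' protocols. One deposited table gives raw counts of reads per gene as whole numbers, and the other deposited table gives FPKM, per the file headers. Tools named in the submitters' processing notes, with no role stated, are STAR 2.7.0, bedtools 2.27.1, Cufflinks 2.2.1 and cutadapt 1.16, and the build named is mm10. Whether counting used strand is not given in the sources used here. Chromosomes X, Y and M have 2618, 1568 and 36 genes in FPKM and 0 in counts, so the count results cover autosomes. Every column belonged to a sample (0 without one).

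Counts were tested with edgeR 4.0.16 (R 4.3.3): quasi-likelihood F test, TMM scaling and filterByExpr, in 1 fit of the 18 distal libraries, with Benjamini-Hochberg adjustment over all genes and a threshold of 0.05. The proximal libraries had a fit of their own, and the tissue difference came from 1 fit of all 36. CPM values use TMM over all 36 libraries. The alternatives were DESeq2 1.42.0, limma 3.58.1 on log2(FPKM + 1) and log2(FPKM + 0.1), no filter, other scaling, 2 covariates, a replicate block and leaving out each library. Replicates of the 2 distal groups differed by more than sampling noise (chi-square over degrees of freedom 4.30 to 16.5) and counted as separate embryos, whose spread the p-values measure. In both genotypes, same-numbered distal and proximal libraries deviated together (r = 0.43 to 0.73). Over the series the sex read from Xist and Y-linked FPKM matched in 18 of 18 such pairs, so the number was taken as the embryo across tissues.

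The members and the 24 gene lists were chosen with earlier results of these data known. Named were the tested HoxD genes and flanking genes, up to 12 called genes per direction by fold change (at least 50 counts on average in the group with more, no overlap between groups, unnamed gene models passed over), up to 4 called members per list by p, and 4 genes per direction of the tissue difference. Other list members, parents of copies and Gm15772 were added after their values were seen. The list of sex-linked genes has 0 members in the count table. Sequences and 50-base windows come from the GENCODE transcripts of the same build. Simulated counts of 15136 genes were also tested for the distal comparison. The test recovered 80.6% of the genes changed 1.5-fold, 92.5% at 2-fold and 100% at 3-fold, with 7 false among 189 calls. The changed genes were drawn only from those with an average log2 CPM above 2, and the recovered shares were not split by expression level. The shares therefore give no rate for low genes such as Hoxd8, Hoxd4 and Hoxd3.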

Additional observations from a re-analysis of the deposited data

Results flagged for a closer look

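The difference between the distal and the proximal effect of Del(CBS1-3) against Del(CBS1-2), tested as an interaction in edgeR, passed the threshold for 11 named genes. On the log2 scale it was 5.82 for Eomes, 2.93 for Nefm, 1.41 for Ccbe1 and 0.97 for Has2, and -0.72 for Spsb4, -0.32 for Rnf220, -0.45 for Tk1, -0.53 for Crabp2, -2.05 for Grin3a, -1.67 for Osr1 and -3.89 for Msc. With the embryo as a block all 11 passed, with adjusted p-values from 0.00444 to 0.0377. Msc had 39.7, 57.7 and 38.6 CPM in proximal Del(CBS1-3) and 40.9, 41.8 and 42.8 CPM in proximal Del(CBS1-2), far above its distal level.

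Y-linked genes, which the count comparisons do not cover, had a summed FPKM over 4 genes of 32.9 in Del(CBS1-3) replicate 1 and 37.8 in replicate 2, and of 0 in each Del(CBS1-2) library.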

How the results depend on the processing

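The count of HoxD genes called was 0 under every alternative run, which tested 7 to 9 of them. The count of 1003 distal genes was 1798 with no count filter, 548 and 521 by limma on log2(FPKM + 1) and log2(FPKM + 0.1), 227 by limma with no filter, 53 with the muscle score and 225 with the Xist level as covariate, and 200 to 1439 without 1 library. It was 688 with the replicate block (680 of them among the 1003). Same-numbered distal libraries of both genotypes correlated at -0.13 to 0.01, so they share only a number. DESeq2 gave 1237 calls and the 6 libraries alone 1074. The tissue interaction count of 66 was 512 with no filter, 147 by DESeq2, 160 with the embryo as replicate block, 135 in 12 libraries alone and 5 to 173 without 1 library. The proximal count of 1150 was 2012 with no filter, 668 with the replicate block and 126 to 1680 without 1 library. With no filter, Hoxd13 was called in the interaction and in proximal tissue. No named gene changed direction with a call. The causes of these shifts were not tested. Hoxd3 rested on 12 reads in Del(CBS1-3) and 8 in Del(CBS1-2), which limits any statement on it.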
